A study of Mus musculus with 12 samples.

Results

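The gene table of this mouse mammary experiment assigns 794 of its 28427 rows to the category antisense, and 53 of these had a total of at least 300 counts over the 12 libraries. These 53 rows, 6.68% of the category, were chosen by category and total count alone. Their totals ran from 302 to 4077 counts, with a median of 666, whereas the 794 antisense rows as a whole had a median of 4 and 260 of them had no count. The 2 members with the smallest totals were AK082862, with 310 counts, and AK049068, with 302. Just outside were BC026600, with 296, and 9330020H09Rik, with 271. All 53 passed the filter on low counts, as did 82 of the 741 antisense rows below 300.

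An antisense transcript is read from the DNA strand opposite to another gene, so that these transcription units overlap or lie back to back. Some such transcripts share a promoter region with the opposite gene, some pair with its RNA or pass through its promoter, and many are short-lived in the nucleus, where the RNA exosome degrades them. Names that begin with AK are full-length complementary DNAs of the RIKEN mouse collection, those that begin with BC come from the Mammalian Gene Collection, and those that end in Rik are RIKEN clone names. Only names of the AK or BC kind were given for 36 of the 53 rows, and 8 rows merged several symbols. Whether counting used the strand of the reads is not known from the sources used here. Without strand, reads from an antisense row and from the gene opposite it cannot be told apart where they overlap, so every value below may hold reads of the opposite gene.

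The libraries came from C57BL/6 mammary epithelial cells kept in a medium with progesterone and prolactin. The groups were monolayers on a collagen coating at 48 h and at 96 h, and spheroids inside Matrigel, a basement membrane gel, at 48 h and at 96 h, with 3 libraries in each. Format and matrix changed together and cannot be told apart. Whether the replicates came from separate animals is not given, so p-values measure the spread between these samples, which may be technical.

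Library totals ran from 7674105 to 13554497 counts, so 3 counts corresponded to 0.223 to 0.376 CPM (counts scaled to library size). No member was at 0 in any library. The 53 rows together took 0.0290% ± 0.00141 (SD, n = 3) of counts in 48 h monolayers, 0.0360% ± 0.00175 in 48 h spheroids, 0.0412% ± 0.00185 in 96 h monolayers and 0.0413% ± 0.00102 in 96 h spheroids. All 6 epithelial markers were detected in every group. At 48 h they summed to 9366 to 10745 CPM in monolayers and 5743 to 6128 in spheroids. At 96 h the sums were 4074 to 4351 CPM in monolayers and 5978 to 6250 in spheroids. The 6 fibroblast markers, all detected in every group, summed to 6969 to 7643 CPM in 48 h monolayers, 1604 to 1797 in 48 h spheroids, 1686 to 2303 in 96 h monolayers and 570.1 to 618.7 in 96 h spheroids. Fibroblast markers therefore moved with format and with time. Epithelial markers moved with format, and with time in monolayers, while their 48 h and 96 h ranges in spheroids overlapped. Against monolayers, the epithelial sum was lower in spheroids at 48 h and higher there at 96 h. The part of these markers in the results was not tested. Of the 5 adipocyte markers, 4 were detected in 48 h spheroids, where the sum was 273 to 305 CPM, against 30.8 to 78.4 CPM in the other groups. All 5 were detected in 96 h spheroids, with a sum of only 46.5 to 50.4 CPM. Adipoq, Plin1 and Lep were at 0 in 48 h monolayers, and Plin1, Lep and Cidec in 96 h monolayers. The 5 endothelial markers summed to at most 65.5 CPM and the 5 immune markers to at most 30.1 CPM in any library, both highest in 96 h monolayers. In such bulk libraries, fewer cells of a type and less RNA per cell cannot be told apart.

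The start regions of 13 members, in 14 windows of 300 bases, were found in the RefSeq promoter table for GRCm38.p6. This build differs from the mm9 build of the counts and was used for sequence and the positions of genes only. Each window holds 250 bases before and 50 after the annotated start. Searched on both strands were 3 short motifs: TTCNNNGAA, the core bound by STAT factors such as the prolactin-activated STAT5, GGAATG, the core bound by TEAD factors, and TATAAA, the TATA box. TTCNNNGAA was in 2 of the 14 member windows and in 8.3% of all 32851 windows of this length. GGAATG was in 4 of the 14, against 14.7% of all windows, and TATAAA in 0 of the 14, against 13.6%. A match describes the letters only. The member windows had a median of 13 CpG dinucleotides, against 7 over all windows, and 11 of the 14 lay above that median. Below are 4 windows, 5′ to 3′, with motif matches in capitals. They belong to members whose levels are described next: one lower in spheroids at each time, one higher at each time, one lower in spheroids at 96 h, and one that switched direction.
4833422C13Rik (chr13:91741823-91742122, minus strand; capitals mark GGAATG on the other strand): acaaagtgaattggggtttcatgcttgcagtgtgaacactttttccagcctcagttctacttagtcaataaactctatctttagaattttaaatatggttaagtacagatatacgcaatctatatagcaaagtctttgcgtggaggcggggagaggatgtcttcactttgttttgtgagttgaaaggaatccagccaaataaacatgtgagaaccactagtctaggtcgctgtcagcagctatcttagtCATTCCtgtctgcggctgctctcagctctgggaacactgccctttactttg
D730005E14Rik (chr15:79893089-79893388, minus strand; capitals mark TTCNNNGAA): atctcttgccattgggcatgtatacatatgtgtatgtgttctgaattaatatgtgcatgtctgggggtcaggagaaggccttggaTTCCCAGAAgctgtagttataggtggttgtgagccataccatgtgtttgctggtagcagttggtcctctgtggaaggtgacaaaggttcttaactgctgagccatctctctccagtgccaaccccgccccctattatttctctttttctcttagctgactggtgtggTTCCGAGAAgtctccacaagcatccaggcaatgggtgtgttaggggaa
4930581F22Rik (chr9:35116478-35116777, plus strand; no match): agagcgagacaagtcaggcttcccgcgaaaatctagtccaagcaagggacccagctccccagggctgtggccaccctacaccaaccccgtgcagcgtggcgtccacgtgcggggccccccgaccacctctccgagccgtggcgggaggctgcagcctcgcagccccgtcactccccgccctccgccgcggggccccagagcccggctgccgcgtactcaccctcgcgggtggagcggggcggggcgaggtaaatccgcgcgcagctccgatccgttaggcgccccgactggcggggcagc
4933431E20Rik (chr3:107896164-107896463, minus strand; no match): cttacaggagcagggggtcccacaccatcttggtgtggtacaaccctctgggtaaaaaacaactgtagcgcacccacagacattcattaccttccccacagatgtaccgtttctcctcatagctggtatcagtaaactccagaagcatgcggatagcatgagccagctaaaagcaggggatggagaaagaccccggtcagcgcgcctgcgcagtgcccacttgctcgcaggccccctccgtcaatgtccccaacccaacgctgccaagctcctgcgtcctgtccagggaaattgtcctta
The 4930581F22Rik window held 34 CpG dinucleotides, that of 4933431E20Rik 11, that of 4833422C13Rik 5 and that of D730005E14Rik 2. RefSeq places D730005E14Rik on the minus strand, as printed, but GENCODE places it on the plus strand. Whether its window, with the matches to TTCNNNGAA, is the start region is therefore uncertain. The CpG-rich window of 4930581F22Rik also adjoins the start of St3gal4, which encodes a sialyltransferase and whose annotated start lies 136 bases away on the opposite strand.

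Per unit of length, on the deposited log2(FPKM + 1) scale, the members' mean levels over the 12 libraries ran from 0.69 for BC048559 to 3.88 for BC029722, with a median of 1.55. BC029722 was followed by BC049805 at 3.25, Muc15 at 3.25 and AK020095 at 3.23. RefSeq listed 14 of the 18 members with a row for an opposite-strand gene as long non-coding RNA, 2 as protein coding (Muc15 and BC029722), 1 as a transcribed pseudogene (Thap6) and 1 through a microRNA name (the row AK136882,Mir1895,AK034519). Muc15 is a mucin of the cell surface known from the milk fat globule membrane, so the category here says where a gene lies and not whether it encodes a protein. AK020095, the member with the most counts, stood at 27.7 ± 2.58 CPM (SD, n = 3) in 48 h monolayers, 29.9 ± 0.628 in 48 h spheroids, 28.8 ± 0.64 in 96 h monolayers and 36.0 ± 3.39 in 96 h spheroids.

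Spheroids were compared with monolayers at each time to describe how culture format relates to these transcripts. At 48 h, 19 of the 53 members passed the threshold, an adjusted p under 0.05 (quasi-likelihood test of edgeR, Benjamini-Hochberg over the 13951 rows tested), where 57.9% of those rows passed. Of these, 12 were higher in spheroids (31.6% of all tested rows were) and 7 lower (26.4%). At 96 h, 34 members passed, against 73.8% of all tested rows, with 16 higher (37.3%) and 18 lower (36.5%). The members' median log2 fold change was 0.02 at 48 h, beside 0.05 over all tested rows, and -0.12 at 96 h, beside 0.00. Over the 589 tested rows of the category noncoding the median was 0.05 at 48 h and -0.40 at 96 h. A change over 2-fold was called for 10 members at 48 h (17.9% of all tested rows) and 20 at 96 h (29.8%). Of these, 8 of the 10 and 12 of the 20 had under 150 counts in one format over both times, so that they reached the total of 300 mainly through the format where they were high, and nothing is read from the shares. The libraries of the 2 formats did not overlap for 24 members at 48 h (60% of all tested rows) and 33 at 96 h (78.9%).

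The largest difference at 96 h was that of Muc15. Its level was 1.47, 0.995 and 0.984 CPM in 48 h monolayers, 13.3, 12.2 and 11.2 in 48 h spheroids, 1.84, 1.63 and 2.03 in 96 h monolayers, and 45.9, 49.7 and 54.0 in 96 h spheroids. All 6 spheroid libraries lay above all 6 monolayer libraries. Spheroids were 10.7-fold higher at 48 h (log2 3.42 ± 0.177 SE, adjusted p = 7.13e-12) and 26.8-fold higher at 96 h (log2 4.74 ± 0.135, adjusted p = 1.07e-15).

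AK132490 was at 1.67, 1.49 and 0.805 CPM in 48 h monolayers against 11.5, 9.27 and 13.4 in 48 h spheroids. At 96 h it was at 0.560, 0.376 and 0.617 CPM in monolayers and 8.64, 7.82 and 8.09 in spheroids. Formats did not overlap at either time, and spheroids were 8.59-fold higher at 48 h (log2 3.10 ± 0.22, adjusted p = 7.12e-10) and 15.1-fold higher at 96 h (log2 3.91 ± 0.27, adjusted p = 2.65e-10). AK006637 had 15 counts over the 3 libraries of 48 h monolayers, 177 over those of 48 h spheroids, 6 over those of 96 h monolayers and 132 over those of 96 h spheroids. Its spheroid libraries were all higher, but with 6 counts the fold at 96 h is loosely bounded: it was 13.8-fold at 48 h (log2 3.78 ± 0.332, adjusted p = 1.38e-08) and 17.1-fold at 96 h (log2 4.09 ± 0.422, adjusted p = 7.17e-08; log2 4.97 without 96 h monolayer replicate 3).

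AK005410 was at 2.16, 2.32 and 2.77 CPM in 48 h monolayers and 13.6, 10.9 and 8.91 in 48 h spheroids. It was at 1.04, 1.5 and 1.68 CPM in 96 h monolayers and 14.4, 12.6 and 13.5 in 96 h spheroids. The formats were apart at each time, by 4.61-fold at 48 h (log2 2.20 ± 0.191, adjusted p = 1.17e-08) and 9.67-fold at 96 h (log2 3.27 ± 0.205, adjusted p = 6.69e-11). AK040960 was at 2.0 ± 0.409 CPM (SD, n = 3) in 48 h monolayers, 5.77 ± 0.743 in 48 h spheroids, 1.81 ± 0.462 in 96 h monolayers and 11.6 ± 2.14 in 96 h spheroids. Its log2 difference was 1.54 ± 0.231 SE at 48 h and 2.67 ± 0.212 at 96 h, without overlap between formats.

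D730005E14Rik was at 7.94, 9.37 and 9.93 CPM in 48 h monolayers and 16.5, 14.8 and 14.7 in 48 h spheroids. At 96 h it was at 5.04, 4.01 and 5.64 CPM in monolayers and 16.3, 16.0 and 18.6 in spheroids. The spheroid libraries were again all higher, by log2 0.75 ± 0.126 at 48 h (adjusted p = 4.81e-05) and 1.77 ± 0.134 at 96 h (adjusted p = 9.8e-10). BC048559 rose by log2 1.19 ± 0.302 and 1.65 ± 0.296, and 9930014A18Rik by 0.59 ± 0.192 and 1.06 ± 0.18, at 48 h and 96 h. BC029722, the member of highest level per length, was higher by 0.42 ± 0.138 at 48 h, where 1 monolayer library (23.1 CPM) lay above the lowest spheroid library (21.7 CPM), and by 0.83 ± 0.145 at 96 h. Its 48 h difference did not pass without monolayer replicate 2 (0.27, adjusted p = 0.103) or spheroid replicate 1 (0.33, adjusted p = 0.0821). Together with BC067010, named here after its values were seen, these made up the 10 members higher in spheroids at each time (21.4% of all tested rows). Muc15, AK132490, AK005410 and AK040960 had 97, 61, 125 and 124 counts over both times in monolayers. These and AK006637 reached the total of 300 mainly through the spheroids, so nothing is read from the share.

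Lower in spheroids at each time were 4 members (17.6% of all tested rows): AK084265, 4833422C13Rik, AK135004 and 1110002L01Rik. With 50 counts over both times in spheroids, AK084265 reached the total of 300 mainly through the monolayers, so nothing is read from this share either. AK084265 was at 5.49, 7.38 and 7.34 CPM in 48 h monolayers and 1.42, 0.927 and 0.445 in 48 h spheroids. It was at 10.2, 10.3 and 16.8 CPM in 96 h monolayers and 0.765, 0.741 and 0.297 in 96 h spheroids. Every spheroid library was below every monolayer library, by 7.01-fold at 48 h (log2 -2.81 ± 0.338, adjusted p = 9.66e-07) and 20.6-fold at 96 h (log2 -4.37 ± 0.319, adjusted p = 5.97e-10), the largest fall among the 53 members.

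4833422C13Rik was at 3.04, 3.40 and 4.21 CPM in 48 h monolayers, 1.70, 1.74 and 1.89 in 48 h spheroids, 6.72, 7.14 and 7.50 in 96 h monolayers, and 0.765, 0.987 and 0.594 in 96 h spheroids. The 4 groups did not overlap with each other. The fold between formats was 2.0 at 48 h (log2 -1.0 ± 0.228, adjusted p = 0.00105) and 9.04 at 96 h (log2 -3.18 ± 0.229, adjusted p = 5.06e-10). 1110002L01Rik, with more counts, was at 20.8 ± 1.42 CPM (SD, n = 3) in 48 h monolayers, 13.6 ± 1.9 in 48 h spheroids, 34.0 ± 1.47 in 96 h monolayers and 11.4 ± 0.274 in 96 h spheroids. It fell by 0.61 ± 0.104 (SE) at 48 h and by 1.57 ± 0.0983 at 96 h on the log2 scale. AK135004 fell by 1.73 ± 0.361 and 1.64 ± 0.311, with a wide spread among its 96 h monolayers (7.76, 3.01 and 6.70 CPM).

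**Figure D1:**
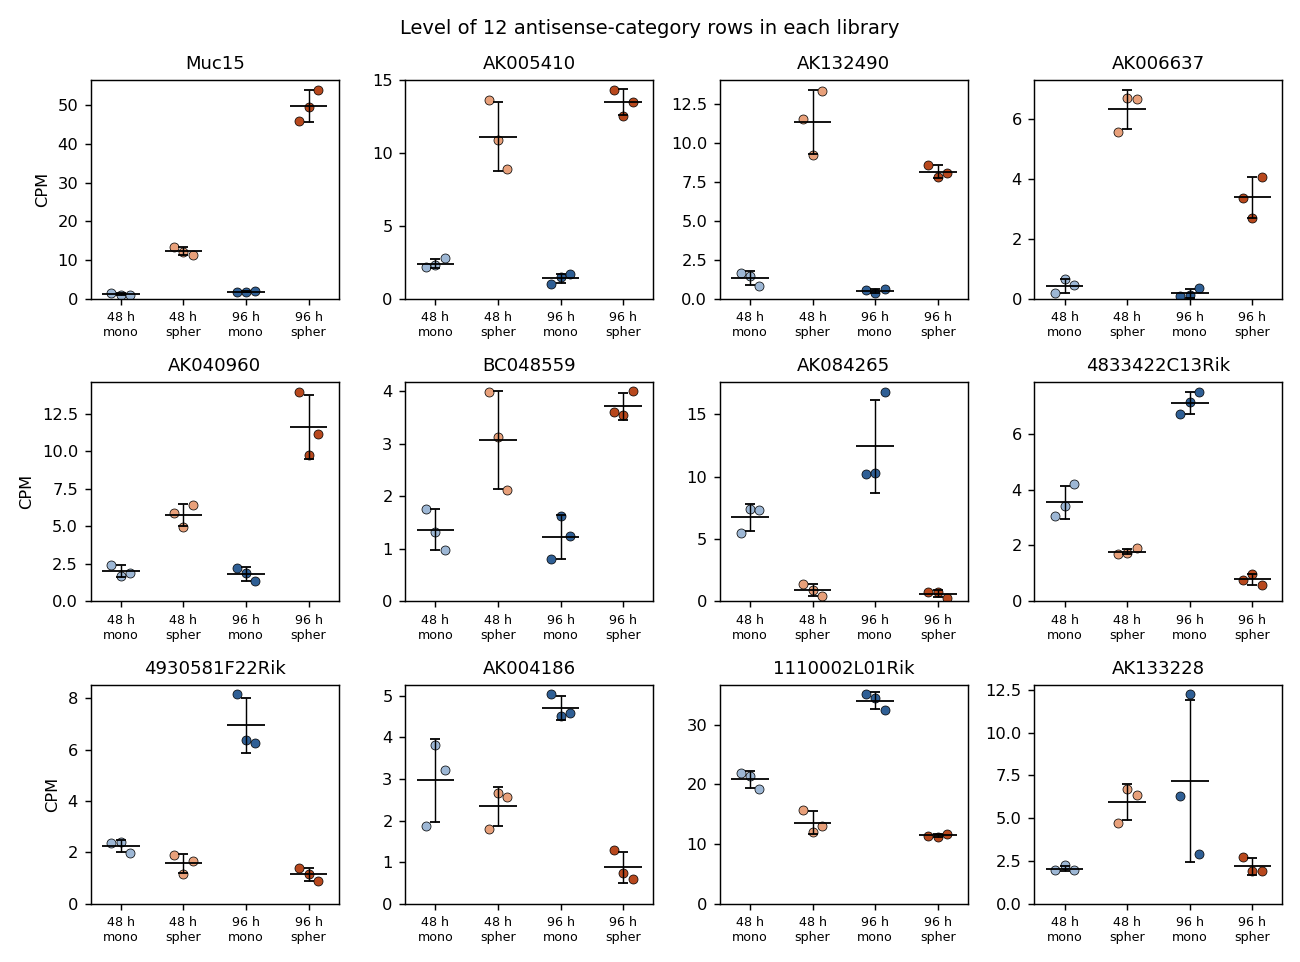
Level in CPM (vertical axes, each from 0 and each on its own scale) of 12 members in the 3 libraries of each group; points are libraries, the long bar is the mean and the whiskers are the SD. Muc15, AK005410, AK132490, AK006637, AK040960 and BC048559 were high in the spheroids, AK084265, 4833422C13Rik and 1110002L01Rik were low there, and AK133228 was high in 48 h spheroids and in 96 h monolayers, where 1 library reached 12.3 CPM and another 2.91.

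At 96 h, 17 members passed that had not at 48 h (27.2% of all tested rows), and 2 members passed at 48 h and not at 96 h (11.3%). Among the former, 4930581F22Rik was at 8.16, 6.39 and 6.26 CPM in 96 h monolayers and 1.38, 1.15 and 0.891 in 96 h spheroids. These libraries were far apart (log2 -2.60 ± 0.235, adjusted p = 1.14e-08), whereas at 48 h the difference was -0.49 ± 0.27 (adjusted p = 0.128). AK004186 likewise fell by 2.41 ± 0.306 on the log2 scale at 96 h, after a difference of -0.37 at 48 h that did not pass. The merged row BC086315,AK086749 was at 24.1, 26.7 and 24.1 CPM in 96 h monolayers and 8.33, 9.63 and 7.72 in 96 h spheroids, a fall of 1.54 ± 0.137. Its 48 h libraries overlapped between formats. The merged row AK136882,Mir1895,AK034519 fell by 1.30 ± 0.256, and Trmt61b, which RefSeq lists as a long non-coding RNA, rose by 0.92 ± 0.124 at 96 h. AK077428 fell by 0.33 ± 0.124 at 96 h, and the merged row AK015096,AK033525 rose by 0.24 ± 0.105. That fall did not pass without 96 h monolayer replicate 1 or 2 or 96 h spheroid replicate 2 or 3 (-0.32 to -0.24). The rise did not pass with DESeq2 (0.22), scaling by total count alone (0.16) or log2 FPKM values (0.13), among other settings. It also did not pass without any one 96 h library (0.20 to 0.27).

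The direction of the format difference turned between the times for 3 members that passed at each (7.59% of all tested rows), from higher to lower for 2 (4.18%) and from lower to higher for 1 (3.41%). AK133228 was at 1.96, 2.24 and 1.97 CPM in 48 h monolayers, 4.73, 6.72 and 6.34 in 48 h spheroids, 6.32, 12.3 and 2.91 in 96 h monolayers, and 2.75, 1.89 and 1.93 in 96 h spheroids. It was higher in spheroids at 48 h (log2 1.51 ± 0.384, adjusted p = 0.00249) and lower at 96 h (-1.64 ± 0.361, adjusted p = 0.000481), where its lowest monolayer library stood only just above its highest spheroid library. Without 96 h monolayer replicate 2, the library at 12.3 CPM, the 96 h difference was -1.09 (adjusted p = 0.00376). 4933431E20Rik went from 1.02 ± 0.194 at 48 h to -0.36 ± 0.151 at 96 h, and the 96 h formats overlapped. Its 96 h difference did not pass without monolayer replicate 1 (-0.28) or 2 (-0.36), or without spheroid replicate 2 (-0.33) or 3 (-0.26). AK087382 went the other way, from -0.87 ± 0.319 at 48 h, with overlapping libraries, to 1.11 ± 0.337 at 96 h. Its 48 h difference did not pass without monolayer replicate 3 (-0.60), spheroid replicate 2 (-0.73) or spheroid replicate 3 (-0.68). Neither test passed for 17 members (14.9%).

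**Figure D2:**
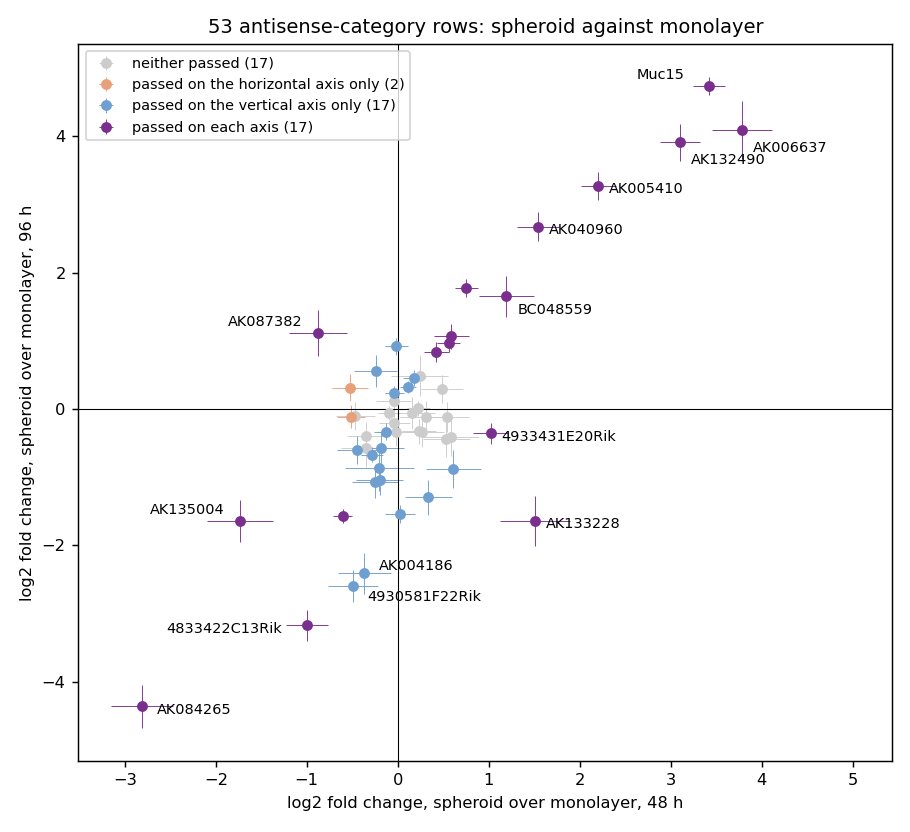
Log2 fold change of spheroid over monolayer at 48 h (horizontal axis) against the same at 96 h (vertical axis) for the 53 members; bars are SE, and colours show where the adjusted p was under 0.05. The 17 members that passed on each axis include 10 at upper right, 4 at lower left, 2 at lower right (AK133228 and 4933431E20Rik) and AK087382 at upper left.

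Time in culture was compared within each format. From 48 h to 96 h, 31 members passed in monolayers (61.3% of all tested rows), with 21 higher (30.1%) and 10 lower (31.3%). In spheroids 16 passed (39.8%), with 9 higher (19.3%) and 7 lower (20.5%). The members' median was 0.31 in monolayers, beside 0.01 over all tested rows, and 0.05 in spheroids, beside 0.01. Over the 589 noncoding rows the median was 0.30 in monolayers, with 172 higher and 93 lower, and -0.11 in spheroids. The rise in monolayers was thus not particular to the members. The times did not overlap for 30 members in monolayers (63.8%) and 20 in spheroids (53.8%). Over 2-fold changes were called for 7 members in monolayers (15.9%) and 5 in spheroids (11%). The scaling bears on these counts: with libraries scaled by total count alone, the median of all rows in monolayers moved from 0.01 to 0.18, the share of higher rows among all called rows from 49.0% to 66.2%, and the members from 21 higher and 10 lower to 26 and 6. At 48 h that scaling moved the share of higher rows between formats from 54.5% to 65.1%, and in the interaction described below from 50.5% to 34.2%.

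In monolayers the largest rises were those of 4933431E20Rik, AK133228, 4930581F22Rik and the row BC086315,AK086749. 4933431E20Rik rose from 3.73, 3.82 and 4.12 CPM to 15, 13.8 and 12.4, without overlap (log2 1.82 ± 0.178, adjusted p = 8.71e-08). 4930581F22Rik rose from 2.35, 2.41 and 1.97 CPM to 8.16, 6.39 and 6.26 (1.63 ± 0.216, adjusted p = 3.8e-06). The row BC086315,AK086749 rose by 1.49 ± 0.14 (adjusted p = 4.73e-08), and AK133228 by 1.73 ± 0.374, or by 1.17 without 96 h replicate 2. 4833422C13Rik rose by 1.00 ± 0.184 and 1110002L01Rik by 0.71 ± 0.0931. The largest falls in monolayers were those of AK087382, from 3.24, 3.98 and 5.90 to 1.68, 2.50 and 0.970 CPM (-1.40 ± 0.334, adjusted p = 0.00148), and of AK132490 (-1.29 ± 0.376; -0.25, adjusted p = 0.0738, on the log2(FPKM + 1) scale). D730005E14Rik fell by 0.87 ± 0.146.

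In spheroids Muc15 rose most, by 4.06-fold (log2 2.02 ± 0.101, adjusted p = 1.82e-11), and AK040960 rose by 1.01 ± 0.179 (adjusted p = 0.000183). AK133228 fell by 1.42 ± 0.371, AK004186 by 1.39 ± 0.345 and 4833422C13Rik by 1.18 ± 0.287. These 3 had each risen in monolayers, as had the row AK136882,Mir1895,AK034519, which fell by 0.92 ± 0.268 in spheroids. These 4 were the members that rose in monolayers and fell in spheroids (6.69% of all tested rows). Trmt61b did the reverse (6.97%), falling by 0.44 ± 0.131 in monolayers and rising by 0.49 ± 0.121 in spheroids. Rises in each format were called for 5 members (6.07% of all tested rows), among them BC049805 (0.50 ± 0.11 and 0.53 ± 0.112) and Thap6 (0.61 ± 0.117 and 0.40 ± 0.115). AK132490 alone fell in each (6.81%), 20 members passed in monolayers only (34.8%) and 5 in spheroids only (13.2%), and 17 members passed in neither (25.4%). Several of these calls rest on single libraries or on the processing. The rise of Muc15 in monolayers (0.70) did not pass with DESeq2 (0.68, adjusted p = 0.0566) or without 48 h monolayer replicate 2 or 3 or 96 h monolayer replicate 1 or 3 (0.60 to 0.70). The rise of 4933431E20Rik in spheroids (0.44) did not pass with DESeq2, upper-quartile or total-count scaling, a minimum count of 30 or log2 FPKM values (0.27 to 0.44). It also did not pass without replicate 2 of the 48 h or 96 h monolayers, 48 h spheroid replicate 2 or 3, or 96 h spheroid replicate 1 or 2 (0.26 to 0.49). In monolayers the rise of AK004186 (0.66) did not pass without 48 h replicate 1 (0.42) or any one 96 h replicate (0.60 to 0.68). That of the row AK136882,Mir1895,AK034519 (0.72) did not pass without 48 h replicate 2 (0.65) or 3 (0.55) or 96 h replicate 2 (0.44). Its fall in spheroids did not pass without 48 h replicate 2 (-0.80) or 96 h replicate 3 (-0.79). In spheroids the fall of AK132490 (-0.48) did not pass without 48 h replicate 1 or 3 or any one 96 h replicate (-0.51 to -0.35), nor did the rise of Thap6 without 48 h replicate 3 (0.31). That fall also did not pass with DESeq2 (-0.48, adjusted p = 0.0512), nor that rise with log2 FPKM values (0.23, adjusted p = 0.118). With scaling by total count alone the fall of Trmt61b in monolayers was -0.27 (adjusted p = 0.0819).

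**Figure D3:**
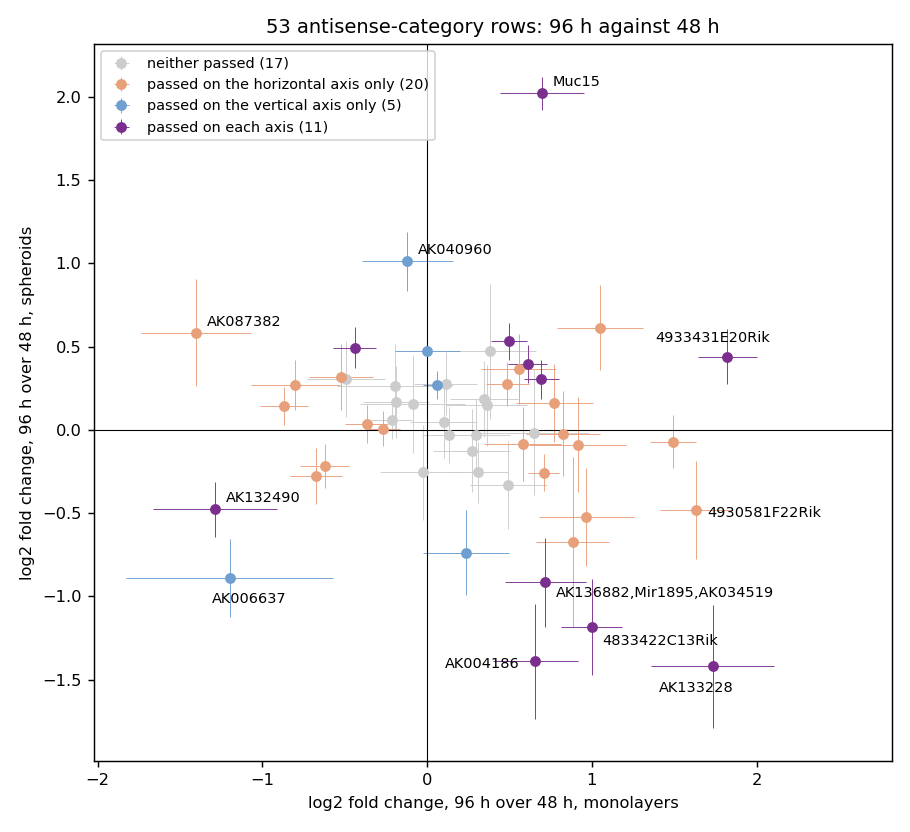
Log2 fold change of 96 h over 48 h in monolayers (horizontal axis) and in spheroids (vertical axis) for the 53 members; bars are SE, and colours show where the adjusted p was under 0.05. Muc15 stands alone at the top, and AK133228, 4833422C13Rik, AK004186 and the row with Mir1895 lie at lower right, higher with time in monolayers and lower in spheroids.

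The interaction, that is, the format difference at 96 h minus that at 48 h, passed for 22 members (53.3% of all tested rows), with 8 positive (26.9%) and 14 negative (26.4%). Over 2-fold it was called for 15 (21%). Its median was -0.19 over members, -0.02 over all tested rows and -0.40 over the noncoding rows. The most negative were AK133228 (-3.15 ± 0.527, adjusted p = 6.7e-05), 4833422C13Rik (-2.18 ± 0.342, adjusted p = 3.4e-05), 4930581F22Rik (-2.11 ± 0.37, adjusted p = 0.000108) and AK004186 (-2.04 ± 0.431, adjusted p = 0.000637). The most positive were AK087382 (1.98 ± 0.464, adjusted p = 0.00155) and Muc15 (1.32 ± 0.288, adjusted p = 0.000837).

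Genes on the opposite strand were found through the RefSeq loci. Of the 53 members, 19 matched a RefSeq gene by symbol, 18 had an overlapping opposite-strand gene with a row, and 16 had 1 that passed the filter on low counts, which gave 17 pairs. In 9 of the pairs the genes overlap at their starts, in 4 at their ends, and in 4 the antisense gene lies inside its partner. The share of the antisense gene's exon bases that its partner's exons also cover is known for 16 pairs, and ran from 1.71% (Muc15 in Ano3) to 95% (A630072M18Rik in Rsbn1l), with a median of 13.7%. On the log2(FPKM + 1) scale the antisense row was below its partner in 14 of the 17 pairs, with a median difference of -1.77. It was above its partner for BC029722 over Mmp24 (2.90), Muc15 over Ano3 (2.37) and 1110002L01Rik over Kif3c (0.39). Partners that did not pass the filter (Acot12, Eps8l3, Cxxc4 and Spdya) enter no pair.

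To ask whether the 2 sides of a pair moved apart, the log2 ratio of antisense to partner CPM, with 0.5 added to each, was tested with limma over all 1076 opposite-strand pairs of the table. Only 42 of these pairs hold a row of the antisense category. The shares of all pairs given below thus come mostly from rows of other categories. The ratio passed for 11 of the 17 member pairs between formats at 48 h (48.3% of all pairs), 12 at 96 h (70.4%), 13 over time in monolayers (59%), 5 over time in spheroids (25.7%) and 8 in the interaction (50.1%). At 96 h the 2 sides passed in the same direction in 7 pairs (29.4% of all 1076 pairs) and in opposite directions in 2 (22.4%). At 48 h they did so in 5 (18.3%) and 2 (11.4%). The 7 include 3 pairs in which one side did not pass under several alternatives: St3gal4, 4933431E20Rik and Fam84b (0.15; 0.07 with scaling by total count alone, adjusted p = 0.332).

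Muc15 and Ano3, an anoctamin of the membrane, differed most. Ano3 was at 1.47, 1.16 and 0.984 CPM in 48 h monolayers, 2.84, 1.97 and 3.23 in 48 h spheroids, 5.36, 6.64 and 6.17 in 96 h monolayers, and 1.53, 1.65 and 1.26 in 96 h spheroids. It was thus highest in the 96 h monolayers, where Muc15 was low, and low in the 96 h spheroids, where Muc15 was highest. The ratio was higher in spheroids by 2.07 ± 0.186 at 48 h (adjusted p = 2.49e-06) and 6.16 ± 0.186 at 96 h (adjusted p = 2.11e-10).

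4930581F22Rik fell in 96 h spheroids while Dcps, the scavenger decapping enzyme that it meets tail to tail, rose by 1.14. Their ratio fell by 3.26 ± 0.233 (adjusted p = 1.26e-07). St3gal4, at the other end, fell by 0.26, which did not pass without 96 h monolayer replicate 1 or 2 or any one 96 h spheroid replicate (-0.26 to -0.17), and the ratio of 4930581F22Rik to it fell by 1.93 ± 0.182 (adjusted p = 1.6e-06). 4833422C13Rik overlaps the end of Ssbp2, a cofactor that binds single-stranded DNA, which was higher in spheroids at 48 h (0.52; 0.20, adjusted p = 0.226, on the log2(FPKM + 1) scale) and lower at 96 h (-0.67). The ratio of this pair fell by 1.32 ± 0.194 (adjusted p = 0.000143) and by 1.96 ± 0.194 (adjusted p = 2.37e-06) at the 2 times. 9930014A18Rik rose at 48 h while Fam84b, with which 35.1% of its exon bases are shared, fell by 0.39, and the ratio rose by 0.93 ± 0.161 (adjusted p = 0.0005).

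Several pairs moved together. 1110002L01Rik shares 63.4% of its exon bases with the end of Kif3c, a kinesin motor subunit. Kif3c fell in spheroids by 1.2 at 48 h and 1.24 at 96 h, so both sides were lower, while their ratio rose by 0.58 ± 0.104 (adjusted p = 0.000605) at 48 h and fell by 0.31 ± 0.104 (adjusted p = 0.018) at 96 h. The latter did not pass without 96 h monolayer replicate 2 (-0.27) or 96 h spheroid replicate 2 (-0.25). A630072M18Rik, which lies almost wholly on exons of Rsbn1l, fell by 0.52 in 48 h spheroids, as Rsbn1l did, also by 0.52. The fall of A630072M18Rik did not pass without monolayer replicate 1 (-0.42), spheroid replicate 1 (-0.48) or spheroid replicate 3 (-0.48). Nor did it pass with scaling by total count alone (-0.42) or log2 FPKM values (-0.17). Their ratio differed by 0.05 ± 0.148 at 48 h (adjusted p = 0.825) and 0.13 ± 0.148 at 96 h (adjusted p = 0.446), and it passed in none of the 5 comparisons. For this pair the shared bases cover 95% of the antisense exons, and the 2 sources of reads cannot be told apart.

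D730005E14Rik rose with Apobec3, a cytidine deaminase that restricts retroviruses, which was higher in spheroids by 0.31 at 48 h and 1.31 at 96 h. The ratio rose by 0.42 ± 0.128 (adjusted p = 0.0158) and 0.40 ± 0.128 (adjusted p = 0.0151). These did not pass without 48 h monolayer replicate 1 (0.35) or 48 h spheroid replicate 1 (0.36), nor without 96 h monolayer replicate 2 (0.29) or 96 h spheroid replicate 3 (0.34). With 2 CPM added in place of 0.5, the 96 h ratio differed by 0.19 (adjusted p = 0.156). RefSeq places these genes on opposite strands and GENCODE on the same strand. Their place among the pairs that overlap at their starts thus rests on RefSeq alone. BC048559 rose at 48 h while Cep57l1, a relative of a centrosome protein, differed by -0.04 (adjusted p = 0.86), and the ratio rose by 0.96 ± 0.264 (adjusted p = 0.00978). At 96 h both rose, Cep57l1 by 1.04. BC029722 and Mmp24, a membrane-type metalloprotease, differed over time: Mmp24 fell by 1.69 in monolayers and 1.85 in spheroids, and the ratio rose by 0.86 ± 0.178 (adjusted p = 0.0015) and 1.46 ± 0.178 (adjusted p = 8.19e-05).

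4933431E20Rik overlaps the start of Gstm5, a glutathione transferase. The ratio rose by 1.2 ± 0.151 in 48 h spheroids (adjusted p = 4.36e-05), where Gstm5 differed by -0.30 (adjusted p = 0.12; -0.45 without 48 h monolayer replicate 1 and -0.46 without 48 h spheroid replicate 1, both of which passed), and by 1.19 ± 0.151 over time in monolayers, where Gstm5 rose by 0.49. 2210015D19Rik, listed by RefSeq as Ube2d-ps, and Urgcp turned in ratio from -0.44 ± 0.123 at 48 h to 0.53 ± 0.123 at 96 h (adjusted p = 0.0108 and 0.00207). For 4 further members that overlap a coding gene, 4933439C10Rik, 9130221H12Rik, A230072C01Rik and 4932416H05Rik, no comparison of the antisense row itself passed. Their partners passed in some: at 96 h Zkscan17 was higher in spheroids by 0.53, the kinase Gsk3a by 0.60 and the prefoldin-like Uxt by 0.58. At 48 h Stk35 was higher by 0.22. The antisense rows held 421 to 676 counts and these partners 1715 to 12011, so a missing call does not show a lack of change. At 48 h the -0.47 of 4932416H05Rik, not called here, passed with DESeq2-type scaling (-0.51) or without monolayer replicate 2 (-0.60). Its ratio to Stk35 fell by 0.63 ± 0.148 (adjusted p = 0.00382). Likewise the 0.36 of A230072C01Rik over time in monolayers passed without 48 h replicate 3 (0.67) or with log2 FPKM values (0.37). The ratio fell in 96 h spheroids for 4933439C10Rik (-0.71 ± 0.105), 9130221H12Rik (-0.44 ± 0.163) and A230072C01Rik (-0.62 ± 0.211). The rise of Stk35 did not pass without 48 h monolayer replicate 2 or 3 or 48 h spheroid replicate 2 or 3 (0.12 to 0.22). The ratio of 9130221H12Rik did not pass without 96 h monolayer replicate 1 or 3 or 96 h spheroid replicate 2 or 3 (-0.44 to -0.34), and that of A230072C01Rik without 96 h monolayer replicate 2 or 96 h spheroid replicate 2 or 3 (-0.55 to -0.52). Thap6 differed by 0.01 ± 0.11 between formats at 96 h, which did not pass, while Rchy1, a ubiquitin ligase that acts on p53, rose by 0.38, and their ratio fell by 0.36 ± 0.128, which did not pass without 96 h monolayer replicate 1 or 2 or 96 h spheroid replicate 1 or 2 (-0.36 to -0.30).

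**Figure D4:**
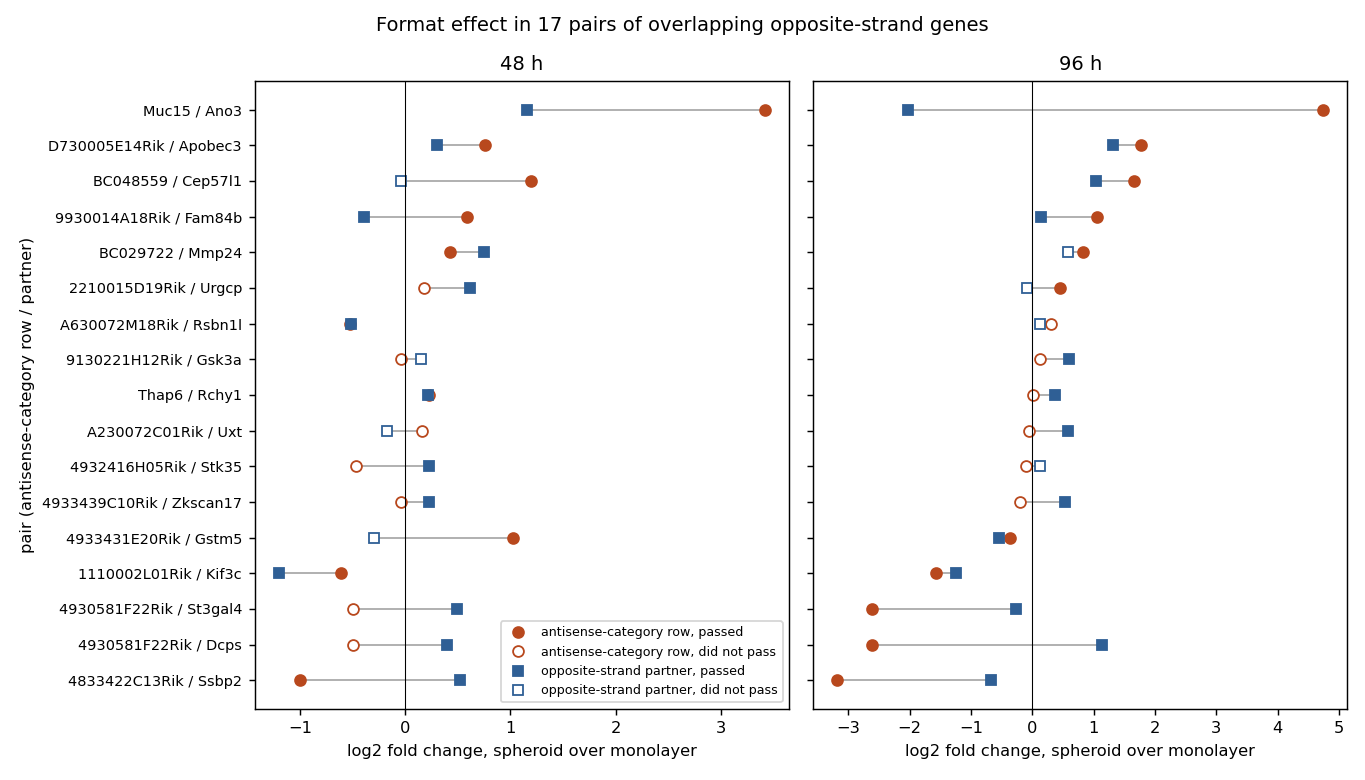
Log2 fold change of spheroid over monolayer at 48 h (left) and 96 h (right) for the antisense row (circles) and its opposite-strand partner (squares) in 17 pairs; filled symbols had an adjusted p under 0.05. At 96 h Muc15 and Ano3 lie on opposite sides of 0, as do 4930581F22Rik and Dcps, and A630072M18Rik and Rsbn1l lie close together at 48 h.

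Genes of RNA decay and of double-stranded RNA handling were counted in 2 lists. Of 23 genes of the nuclear exosome and RNA surveillance, 12 were higher and 3 lower in spheroids at 48 h (31.6% and 26.4% of all tested rows), and 16 higher and 3 lower at 96 h (37.3% and 36.5%). The list's median log2 difference was 0.17 and 0.37, beside 0.05 and 0.00 over all tested rows. Exosc6 and Exosc7, subunits of the exosome ring, rose by 1.71 and 1.41 at 96 h. In monolayers 3 of these genes rose and 8 fell with time (30.1% and 31.3% of all tested rows), and in the interaction 9 were positive and 2 negative (26.9% and 26.4%). In spheroids 4 rose and 2 fell with time (19.3% and 20.5%), 6 calls in all, against 2 without 48 h spheroid replicate 2 and 3 without 96 h spheroid replicate 1 or 3. The same shares of all tested rows stand beside the other lists. Of 21 genes that process or sense double-stranded RNA, 5 rose and 5 fell in spheroids at 48 h, and 8 rose and 7 fell at 96 h. Adarb1, an editing enzyme, fell by 1.62 and 1.54 at those times. With time, 8 rose and 6 fell in monolayers and 7 rose and 1 fell in spheroids (5 calls in all without 48 h spheroid replicate 2 or 96 h spheroid replicate 3), and the interaction was positive for 7 and negative for 2. Among 12 tested of 14 well-known long non-coding RNAs, 5 rose and 3 fell in spheroids at 48 h, and 2 rose and 9 fell at 96 h, where their median was -0.75. Meg3 fell by 2.19 and 4.15 at those times. With time 6 of them rose and 2 fell in monolayers, 0 rose and 5 fell in spheroids, and the interaction was negative for 7 and positive for 0. The antisense RNAs Tsix, with 15 counts in all, and Nespas, with 34, did not pass the filter.

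No comparison passed for 9 members (9.08% of all tested rows), whose totals ran from 310 to 872 counts and whose log2 differences stayed within 0.58 in either direction. Among them, 4932416H05Rik, A230072C01Rik and AK082862 each passed in a comparison under some alternatives. Those of the 9 that lie outside the rule for naming were not followed under the alternatives. In all 5 comparisons 4 members passed (11.7%): Muc15, 4933431E20Rik, AK133228 and 4833422C13Rik. As given above, the time calls of Muc15 in monolayers and of 4933431E20Rik in spheroids, and the 96 h format call of 4933431E20Rik, did not pass under several alternatives. The 19 members outside the rule for naming had totals of 315 to 1434 counts. Between formats at 48 h their log2 differences ran from -0.51 to 0.59, with 1 higher and 1 lower (31.6% and 26.4% of all tested rows). At 96 h they ran from -1.07 to 0.96, with 2 higher and 6 lower (37.3% and 36.5%). In monolayers 7 rose and 2 fell with time (30.1% and 31.3%), with differences of -0.68 to 1.05. In spheroids 1 rose and 1 fell (19.3% and 20.5%), with differences of -0.74 to 0.61. The interaction ran from -1.0 to 0.80, with 1 positive and 4 negative (26.9% and 26.4%). A total of 300 counts can be met through one format alone: 38 of the 53 members had at least 150 counts in each format, 6 had fewer in monolayers and 9 had fewer in spheroids.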

How the data were processed

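RNA was measured by mRNA sequencing (Illumina TruSeq, per the labels) in 12 libraries, 3 for each combination of format and time. Per the submitters' processing notes, the authors used bcl2fastq 2.15.0, Bowtie 1.0.1 and RSEM 1.2.30 with mm9 (strand, options: not given in the sources used here). Expected counts per gene were deposited by the authors, rounded to whole numbers, with log2 values of FPKM + 1 and a table of symbols and categories. In R 4.3.3, edgeR 4.0.16 kept 13951 rows (minimum count 10, minimum total 15), scaled by TMM (factors 0.923 to 1.07) and fitted 1 quasi-likelihood model of the 4 groups (common dispersion 0.00501), 2-sided, Benjamini-Hochberg, threshold 0.05; SE is the absolute log2 change over the square root of F. CPM uses TMM library sizes and is not divided by length. Ratios used limma 3.58.1. RefSeq GRCm38.p6 gave which genes overlap, their arrangement, the distances between starts and the gene types. Shared exon bases came from the exons of GENCODE M21. Strand came from the promoter table, otherwise from GENCODE M21, and 21904 of 28427 rows matched. The members, lists and naming rule were chosen with earlier results of these data known. Named were the 10 members of highest mean CPM, the 6 with the largest called change in each comparison without overlap of groups, the members nearest a total of 300, and those with a partner. Replicates differed by more than sampling noise (chi-square over degrees of freedom 2.40 to 17.2). On data simulated for the 48 h format comparison over 13951 genes, 181 of 200 changes of 2-fold were recovered, with 5 false calls. The simulation gave every gene the common dispersion and took changed genes from all levels, so it does not measure power for the members. Alternatives were DESeq2 1.42.0, other scalings, filters, added CPM and log2 FPKM values, a replicate block, a minimum total of 200, 500 or 1000, and leaving out each library.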

Additional observations from a re-analysis of the deposited data

Results flagged for a closer look

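The interaction test, the format difference at 96 h minus that at 48 h, passed for 17 of the named members, for 12 opposite-strand partners and for 8 ratios of antisense row to partner, and each of these is given here because its format difference was not the same at the 2 times. All values are on the log2 scale. Among the members the interaction was positive for Muc15 (1.32), D730005E14Rik (1.02), Trmt61b (0.93), AK005410 (1.07), AK040960 (1.13), A630072M18Rik (0.84) and AK087382 (1.98). It was negative for 1110002L01Rik (-0.96), the row BC086315,AK086749 (-1.56), 4933431E20Rik (-1.38), the row AK136882,Mir1895,AK034519 (-1.63), AK084265 (-1.56), AK133228 (-3.15), 4833422C13Rik (-2.18), 4930581F22Rik (-2.11), AK004186 (-2.04) and AK049068 (-1.49). The interaction of AK084265, which had 0.445 CPM or less in the lowest 48 h and 96 h spheroid libraries, did not pass without 48 h spheroid replicate 1 (-1.07), 48 h spheroid replicate 2 (-1.57) or 96 h spheroid replicate 3 (-1.21). That of A630072M18Rik did not pass without 96 h spheroid replicate 3 (0.72), with scaling by total count alone (0.65) or with log2 FPKM values (0.27).

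Among the partners it was positive for Dcps (0.74), Zkscan17 (0.31), Gsk3a (0.45), Fam84b (0.53), Uxt (0.75), Rsbn1l (0.65), Cep57l1 (1.09) and Apobec3 (1.01), and negative for Urgcp (-0.71), Ssbp2 (-1.20), St3gal4 (-0.75) and Ano3 (-3.18). Ano3 and its overlapping member Muc15 thus had interactions of opposite sign, as had Dcps and 4930581F22Rik. The interaction of Zkscan17 did not pass without 48 h monolayer replicate 1 or 2, 48 h spheroid replicate 3, 96 h monolayer replicate 2 or 96 h spheroid replicate 1 or 2 (0.25 to 0.31). It also did not pass with scaling by total count alone (0.12), upper-quartile scaling (0.23), a minimum count of 30 (0.26) or log2 FPKM values (0.11).

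Among the ratios it was positive for Muc15 over Ano3 (4.09) and 2210015D19Rik over Urgcp (0.98). It was negative for 4930581F22Rik over Dcps (-2.46) and over St3gal4 (-1.03), 1110002L01Rik over Kif3c (-0.90), 4933431E20Rik over Gstm5 (-1.02), A230072C01Rik over Uxt (-0.94) and 4933439C10Rik over Zkscan17 (-0.46). The last did not pass without 48 h spheroid replicate 2, 96 h monolayer replicate 1 or 2, or 96 h spheroid replicate 2 (-0.42 to -0.41). Groups of 3 libraries were not searched for outlying values. Each library was left out in turn instead.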

How the results depend on the processing

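Single results were followed for named rows and pair ratios only. Of 340 single results, 205 passed, and 158 of these passed under every alternative run, while 47 did not under at least 1. Of the 135 that did not pass, 38 passed under at least 1. With log2(FPKM + 1) values, where the added 1 shrinks the fold of low rows, the interaction of AK006637 reversed from 0.31 to -0.52 (adjusted p = 0.0127). Members lower over time in monolayers numbered 6 with scaling by total count alone and 6 with log2 FPKM values, in place of 10. Under log2 FPKM values the genes called over time in spheroids numbered 3 in the exosome list and 5 in the double-stranded RNA list, in place of 6 and 8, and 7 in place of 11 in the exosome interaction. The share of higher rows among called rows was then 65.2% between formats at 48 h, 65.2% over time in monolayers and 35.6% in the interaction. Scaling by total count alone moved the median of all rows from 0.05 to 0.16 at 48 h, from 0.01 to 0.18 over time in monolayers and from -0.02 to -0.21 in the interaction; for members it gave 17 higher and 6 lower at 48 h and 6 positive and 18 negative interactions.

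A higher minimum total leaves fewer members, 34 at 500 and 15 at 1000, against 73 at 200. At 500, 4 were lower at 48 h (26.4% of all tested rows) and 11 lower at 96 h (36.5%). Over time, 12 were higher in monolayers (30.1%) and 4 lower in spheroids (20.5%), and 8 were negative in the interaction (26.4%). The other directions at 500 are not given. At 1000, 5 were higher (31.6%) and 1 lower (26.4%) at 48 h, and 8 higher (37.3%) and 5 lower (36.5%) at 96 h. Over time at 1000, 8 were higher (30.1%) and 5 lower (31.3%) in monolayers, and 0 lower in spheroids (20.5%). The interaction at 1000 was positive for 3 (26.9%) and negative for 4 (26.4%). A smaller set holds fewer calls by its size, so nothing is read from these counts.

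Leaving out 1 library at a time gave 5 to 10 members higher over time in spheroids (5 without 48 h spheroid replicate 3) and 9 to 16 members with a negative interaction (9 without 48 h spheroid replicate 1). Over time in spheroids it gave 2 to 7 genes called in the exosome list (2 without 48 h spheroid replicate 2, 3 without 96 h spheroid replicate 1 or 3) and 5 to 9 in the double-stranded RNA list (5 without 48 h spheroid replicate 2 or 96 h spheroid replicate 3). Same-numbered libraries did not deviate together (correlations -0.110 to 0.0881 over 18 pairs of libraries, none over 0.1, and 2 of 12 libraries correlated best with their own number), so the numbers were not taken to pair the samples. With a replicate block, 13 members were higher and 7 lower in spheroids at 48 h, 15 and 19 at 96 h, 21 and 10 with time in monolayers, 8 and 7 with time in spheroids, and 7 positive and 13 negative in the interaction. Depth limits rows such as AK006637, with 6 counts over 3 libraries, and strand limits all of them.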
